A study of Homo sapiens with 6 samples.

Results

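Interferon stimulated genes are the genes that cells switch on when interferon, a secreted antiviral signal, binds its receptor. 59 of them were followed in H1299 cells that carry a short hairpin RNA against Ephexin1 and in cells that carry a control hairpin. They were taken by name from a fixed list, and all 59 were among the 26255 rows of the expression table. The rule that lists them uses names and no measured value of this comparison. The list was, however, drawn up with earlier results of these data known. It holds GBP1, IFI44L, APOL3 and MX1, which the study drew or measured again after sequencing these libraries. NCI-H1299 is an established human non-small cell lung carcinoma line, and Ephexin1 is a guanine nucleotide exchange factor encoded by NGEF. The 3 shControl libraries came from cells given the vector pSilencer2.1-U6-neo with a control hairpin, and the 3 shEphexin1 libraries came from cells given the same vector with the Ephexin1 hairpin. This vector name is that of the sample labels, while the study's methods name pSilencer2.1-U6-hygro. Each library was made from total RNA with a stranded kit, and each gene's level was given in FPKM, a fragment count scaled to transcript length and library size. Cells of both groups grew in the same serum-containing medium, and no interferon treatment is named for either. The knockdown lines were stably selected, and the library names do not say whether the 3 libraries of a group came from separate clones or cultures, so the p-values measure the spread between these libraries alone.

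Type I and type III interferons act through paired receptors and the kinases JAK1 and TYK2, which phosphorylate STAT proteins, STAT2 among them. These join IRF9 to form a complex that binds the interferon stimulated response element in promoters, while interferon gamma acts at gamma activated sites. The proteins made in response sense foreign nucleic acid, degrade or block viral RNA, and restrict viruses at membranes, and ISG15 is a small modifier that is attached to other proteins. Carcinoma lines often keep a low level of these genes without added interferon.

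The promoter sequences of the 5 genes that passed the thresholds, and of IFIT1, a classical target that did not, are shown to let the levels be read beside the response element. In each line the capitals mark a match to GAAA, 2 bases of any kind and GAAA in a row, the core of the interferon stimulated response element, or to TTCNNNGAA, that of the gamma activated site, on either strand, so that TTTCAGTTTC is a match read from the other strand. Each window runs from 250 bases before to 50 bases after a transcription start, is written in the direction of the gene, comes from RefSeq's table for GRCh38.p14, and was placed on GRCh37 by its own exact match.
GBP1 promoter, chr1:89530842-89531141, minus strand: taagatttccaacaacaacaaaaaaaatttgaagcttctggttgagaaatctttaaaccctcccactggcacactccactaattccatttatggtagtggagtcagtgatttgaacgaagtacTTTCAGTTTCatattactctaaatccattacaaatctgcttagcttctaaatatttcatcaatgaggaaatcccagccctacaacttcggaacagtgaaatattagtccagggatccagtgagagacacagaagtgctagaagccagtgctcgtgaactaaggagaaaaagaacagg
SAMD9 promoter, chr7:92747243-92747542, minus strand: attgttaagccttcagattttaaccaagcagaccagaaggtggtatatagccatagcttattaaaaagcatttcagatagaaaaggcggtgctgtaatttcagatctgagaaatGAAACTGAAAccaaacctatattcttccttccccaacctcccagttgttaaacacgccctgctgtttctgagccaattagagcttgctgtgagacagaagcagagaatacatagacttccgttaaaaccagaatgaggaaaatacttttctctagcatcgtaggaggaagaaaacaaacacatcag
SAMD9L promoter, chr7:92777649-92777948, minus strand: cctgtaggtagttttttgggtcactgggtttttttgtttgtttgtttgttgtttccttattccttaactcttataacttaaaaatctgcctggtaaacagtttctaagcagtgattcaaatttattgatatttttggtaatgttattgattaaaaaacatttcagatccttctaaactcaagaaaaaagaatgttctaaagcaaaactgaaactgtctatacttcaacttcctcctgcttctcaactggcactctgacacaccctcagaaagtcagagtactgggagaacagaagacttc
IFI44 promoter, chr1:79115224-79115523, plus strand: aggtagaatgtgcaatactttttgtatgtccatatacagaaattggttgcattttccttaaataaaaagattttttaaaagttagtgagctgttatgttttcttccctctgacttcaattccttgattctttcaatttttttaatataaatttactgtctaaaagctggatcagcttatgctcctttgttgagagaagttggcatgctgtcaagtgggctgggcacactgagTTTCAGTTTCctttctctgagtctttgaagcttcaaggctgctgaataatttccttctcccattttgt
OAS1 promoter, chr12:113344517-113344816, plus strand: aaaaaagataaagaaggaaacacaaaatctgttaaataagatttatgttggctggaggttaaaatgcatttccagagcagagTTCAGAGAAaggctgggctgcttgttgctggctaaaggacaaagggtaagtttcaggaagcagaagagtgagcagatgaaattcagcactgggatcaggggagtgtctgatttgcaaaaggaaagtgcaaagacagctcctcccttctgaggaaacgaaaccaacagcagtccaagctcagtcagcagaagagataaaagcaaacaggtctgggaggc
IFIT1 promoter, chr10:91152130-91152429, plus strand: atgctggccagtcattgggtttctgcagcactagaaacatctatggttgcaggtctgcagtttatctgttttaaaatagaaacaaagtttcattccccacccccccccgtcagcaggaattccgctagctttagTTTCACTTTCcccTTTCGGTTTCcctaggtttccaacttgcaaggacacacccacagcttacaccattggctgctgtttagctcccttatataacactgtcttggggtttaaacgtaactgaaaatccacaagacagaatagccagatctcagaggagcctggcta
A promoter was found in the table for 45 members, and 28 of the 45, 62.2%, held the response element core, against 4.38% of all 27305 genes in the table. The gamma activated site core, TTCNNNGAA, was held by 15 of the 45, 33.3%, against 9.38% of all genes. Of the 5 genes that passed the thresholds, GBP1, SAMD9 and IFI44 held the response element core, OAS1 held TTCNNNGAA alone, and neither set of letters was in the SAMD9L window. Only exact matches at the stated spacing were counted. The OAS1 window also holds GAAACGAAA, in which GAAA repeats at a shorter spacing, and this was not counted. A window without a match is therefore not shown to lack a response element. IFIT1 held 2 matches to the response element core. Among the tested members with a promoter, the response element core was in 11 of 19 genes whose levels were higher in shEphexin1 without overlap between the groups, 57.9%, and in 13 of the 20 others, 65%. Matches of this exact form were thus common across the list, and their share was no higher in members whose groups separated than in the others.

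The targeted gene was measured first as a check of the labels. NGEF was at 13.3, 11.7 and 16.4 FPKM in shControl libraries 1 to 3 and at 9.81, 8.25 and 10.5 FPKM in shEphexin1 libraries 1 to 3. Every shEphexin1 library was below every shControl library, but the log2 fold change of −0.53 (SE 0.163) did not pass the test (limma, Benjamini-Hochberg adjusted p = 0.103). Treated as pairs by replicate number the limma adjusted p was 0.00284, still under the fold threshold. Markers of the line were mixed. VIM was at 1979 to 2670 FPKM in all libraries, and KRT18 was at 67.6 to 109 FPKM in the control libraries, against 36.3 to 54.7 FPKM in the depleted ones. The leukocyte markers PTPRC and CD3E were listed at 0 in all 6 libraries and CD14 reached at most 0.164 FPKM, while CD68 was at 37.8 to 53.5 FPKM under the control hairpin, and 53.4 to 71.1 FPKM under the Ephexin1 hairpin. Whether the differences in KRT18 and CD68 had a part in the results was not tested. Replicate 2 of each group stood apart, since the levels of GC-rich genes were low there (Spearman's rho across 12211 genes of −0.80 and −0.87 between GC content and the deviation from the group mean, against 0.43 to 0.80 in the other libraries). Results are therefore also given for replicates 1 and 3 alone.

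Most interferon stimulated genes tested had slightly higher mean levels in Ephexin1-depleted H1299 cells than in control cells, and a few rose at least 2-fold. GBP1, SAMD9, SAMD9L, IFI44 and OAS1 passed both thresholds (limma adjusted p no higher than 0.025, fold change 2 or more), and all 5 were higher in shEphexin1. No member passed them in the other direction. Of the 50 members tested, 5 called higher are to be read beside 143 of 16020 genes called higher (0.893%), and 0 called lower beside 160 genes (0.999%). At an unadjusted p of at most 0.05, 22 members were higher, beside 10.5% of all genes tested, and 0 were lower, beside 12.8%. The levels of 23 members were higher in shEphexin1 with no overlap between the groups, beside 12.8% of all genes tested, and those of 2 members, STAT2 and ADAR, were lower without overlap, beside 15.4%. A member tested was higher by its mean log2 value in 43 cases and lower in 7, so that 86% pointed upward, beside 48.9% of all genes. The median log2 fold change was 0.31 over the members and −0.0093 over all genes tested, with members from −0.49 for IFI35 to 2.35 for OAS1. In such bulk RNA, a higher level in every cell and a high level in a few cells cannot be told apart.

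The filter on low values bears on these counts. Of the 59 members, 48 were at 0.1 FPKM or more in every library, 2 (OAS1 and IFI44L) passed through the shEphexin1 libraries alone, and 9 were not tested. Over the 48, none of which passed the filter through 1 group alone, 85.4% were higher in shEphexin1, 43.8% did so without overlap and the median log2 fold change was 0.29. GBP1, SAMD9, SAMD9L and IFI44, 4 of the 48, were called, beside 113 of 14472 genes called higher. Over the 14472 genes at 0.1 FPKM or more in every library the same values were 47.7%, 12.5% and −0.02. Counted without regard to the size of the change, 6 members passed the adjusted p threshold and were higher (1.25% of all genes), and 0 were lower (2.15%). When libraries with the same replicate number were treated as pairs, these counts became 19 higher, beside 10.1% of all genes, and 1 lower (IFI35), beside 15.7%, while the count past both thresholds was again 5. With replicates 1 and 3 alone, 5 members were called and the median was 0.30.

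**Figure D1:**
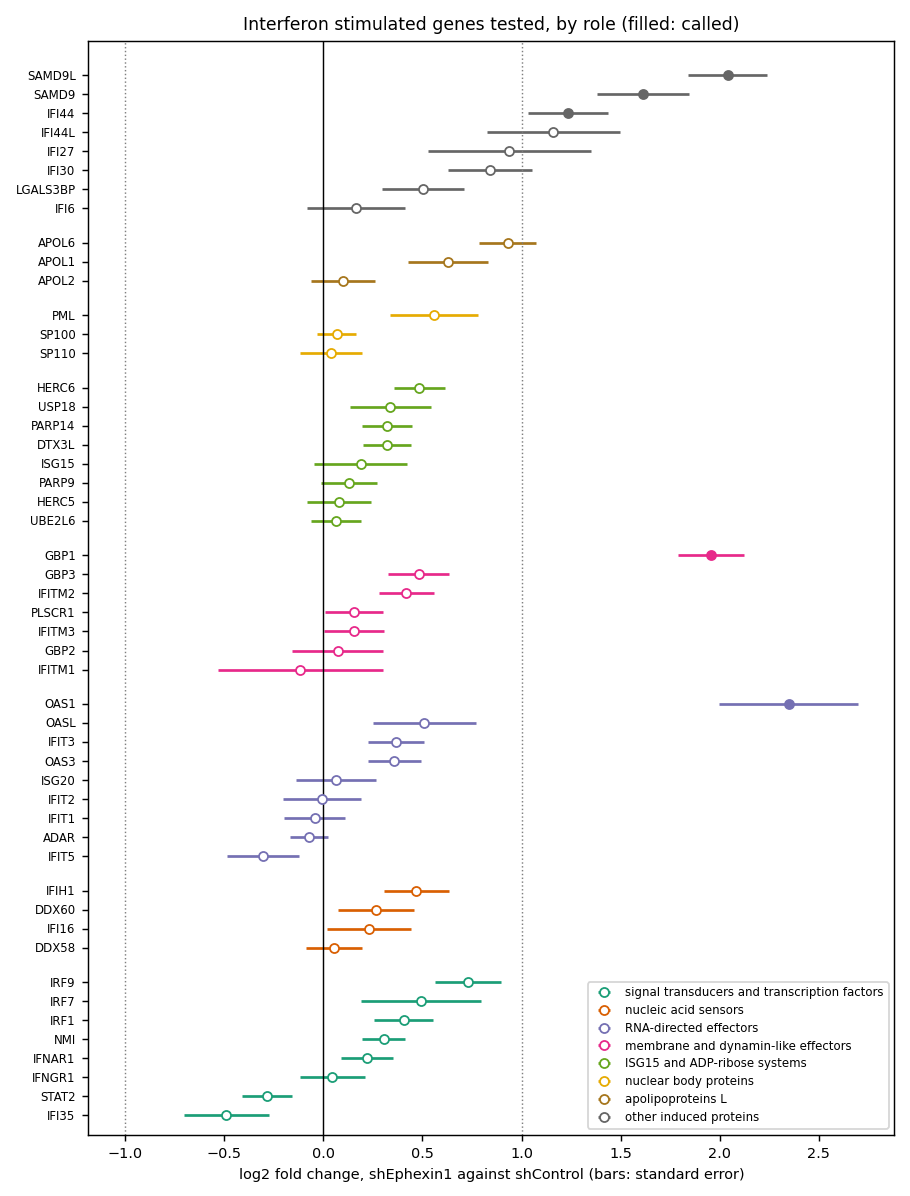
Log2 fold change of shEphexin1 against shControl (x axis, on log2(FPKM + 0.1), bars are standard errors) for each of the 50 interferon stimulated genes tested, 1 row per gene, coloured by role. Dotted lines stand at a fold change of 2 in either direction, and the 5 filled points, GBP1, SAMD9, SAMD9L, IFI44 and OAS1, are the members called. Most points lie to the right of 0, and 7 lie to the left.

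**Figure D2:**
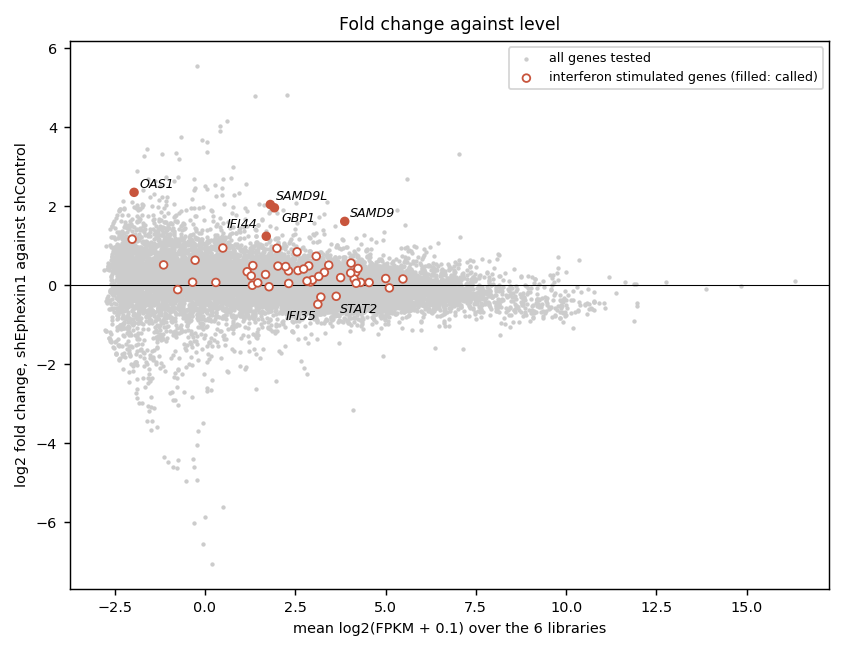
Log2 fold change of shEphexin1 against shControl (y axis) against the mean log2(FPKM + 0.1) over the 6 libraries (x axis) for 16020 genes tested (grey) and the 50 interferon stimulated genes among them (red rings, filled where called). The members lie across the range of levels, mostly on the upper side of 0, and within the spread of the other genes.

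Among the 10 members grouped as other induced proteins, 8 were tested, all 8 were higher and 3 were called higher. Of all genes tested, 48.9% were higher and 0.893% were called higher. SAMD9 and its neighbour SAMD9L are paralogous cytoplasmic proteins that restrict poxviruses and slow cell growth. SAMD9 (chr7:92728826-92747336, GRCh37, minus strand) was at 7.42, 10.8 and 7.03 FPKM across shControl 1 to 3, with 22.8, 34.2 and 21.2 FPKM across shEphexin1 1 to 3. The lowest shEphexin1 library was well above the highest shControl library, and replicate 2 was the highest of each group. Its log2 fold change was 1.61 (SE 0.234, limma adjusted p = 0.0117), and 1.59 with replicates 1 and 3 alone. SAMD9L (chr7:92759369-92777698, minus strand) rose from 1.34, 2.00 and 1.61 FPKM to 6.60, 8.46 and 6.15 FPKM, again without overlap. Its log2 fold change of 2.04 (SE 0.20, limma adjusted p = 0.00296) held in all 20 alternatives. The call on SAMD9 did not hold without shControl 1, shControl 3, shEphexin1 1 or shEphexin1 3, where the limma adjusted p was 0.0742, 0.0482, 0.0510 and 0.0328 at log2 fold changes of 1.5 to 1.74.

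Both genes lie on the long arm of chromosome 7. Over the 407 tested genes there with a mean of at least 1 FPKM, the genes used for all arm medians here, the median log2 fold change was 0.30. Relative to that median, SAMD9 was at 1.31 (limma adjusted p = 0.0276) and SAMD9L at 1.74. Of the 24 other genes tested within 2 Mb of SAMD9, 0 were called by limma in either direction, and 6 were higher and 0 lower at an unadjusted p of at most 0.05. The nearest on one side, the cell cycle kinase gene CDK6, was at a log2 fold change of 0.064, and the nearest on the other, HEPACAM2, was at 0.52. TFPI2, a serine protease inhibitor gene, was at 0.71 (limma adjusted p = 0.0394) and GNG11, a G protein gamma subunit gene, at 0.58 (limma adjusted p = 0.0147), both under the fold threshold. The rise of the SAMD9 pair was thus larger than that of any other gene tested in the window, of which GNGT1 was the highest at 1.00. No 50-base word was shared between the transcripts of SAMD9 and SAMD9L, so the values of the pair do not rest on shared stretches of that length. Without the pair, 3 of 48 tested members were called and the median was 0.29.

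**Figure D3:**
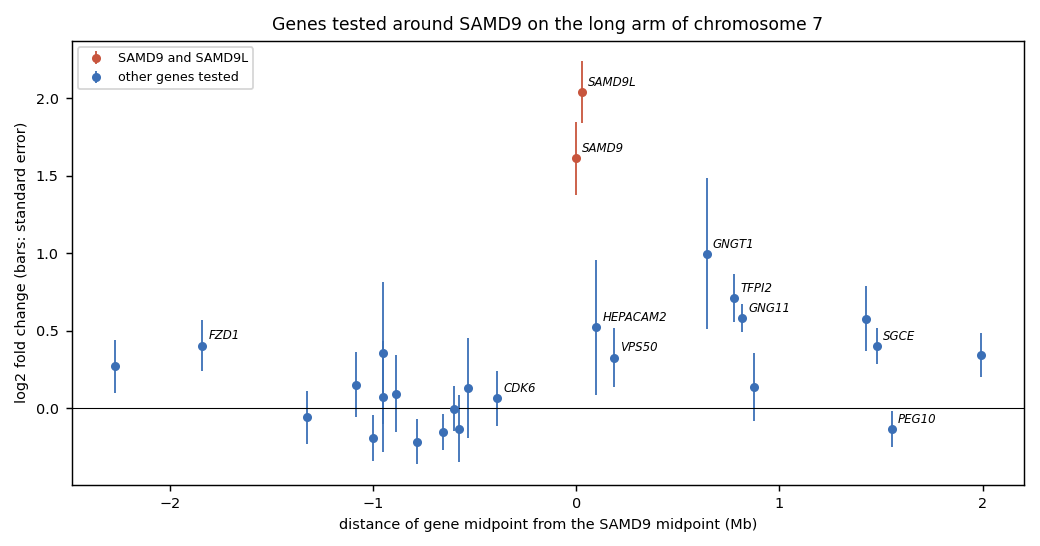
Log2 fold change of shEphexin1 against shControl (y axis, bars are standard errors) for the genes tested within 2 Mb of SAMD9, by distance of each gene's midpoint from that of SAMD9 in Mb (x axis). SAMD9 (1.61) and SAMD9L (2.04) stand above the 24 other genes, which reach 1.00.

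IFI44 and IFI44L are neighbouring paralogs on the short arm of chromosome 1 whose products are reported to restrain virus replication. IFI44 (chr1:79115481-79129763, plus strand) was at 2.00, 2.40 and 1.69 FPKM in the control libraries, against 5.25, 5.63 and 3.92 FPKM in the depleted ones. The groups did not overlap, and the log2 fold change was 1.24 (SE 0.202, limma adjusted p = 0.0174). This call rested on all 6 libraries, since leaving out any of them gave a limma adjusted p between 0.0272 (without shControl 2) and 0.0936 (without shEphexin1 1), by way of 0.0307 without shEphexin1 2, 0.0325 without shEphexin1 3, 0.0634 without shControl 3 and 0.0915 without shControl 1. With a pseudocount of 1 FPKM its log2 fold change was 0.96, below the fold threshold. IFI44 was also not called when the filter on low values was left out, and its call held in 12 of 20 alternatives. IFI44L (chr1:79085587-79111830, plus strand) was picked by the study from these same libraries, so its level here is no independent evidence. By RT-qPCR, a separate assay of RNA level, the study reports differences for genes it chose in this way. Its primer list holds IFI44L, APOL3 and MX1, and those measurements were not used here. In these libraries IFI44L was near the filter at 0.0896, 0.0585 and 0.0505 FPKM under the control hairpin, and 0.388, 0.274 and 0.177 FPKM under the Ephexin1 hairpin. Its groups did not overlap, but the log2 fold change of 1.16 (SE 0.334) did not pass the test (limma adjusted p = 0.0861). The transcripts of the pair share no 50-base word.

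The remaining members of that group were IFI30, IFI27, LGALS3BP and IFI6. IFI30, a lysosomal thiol reductase used in antigen processing, was at 3.76, 4.14 and 5.02 FPKM across shControl 1 to 3, with 7.53, 6.09 and 10.1 FPKM across shEphexin1 1 to 3. These values did not overlap, with a log2 fold change of 0.84 (SE 0.211, limma adjusted p = 0.0586), and of 0.99 with replicates 1 and 3 alone. LGALS3BP, a secreted galectin-binding glycoprotein, had a log2 fold change of 0.50 (limma adjusted p = 0.203). With libraries paired by replicate number, its limma adjusted p was 0.00249, still under the fold threshold. IFI27 was at 0.964, 1.36 and 0.580 FPKM in the control libraries, against 3.31, 1.41 and 1.35 FPKM in the depleted ones, where replicate 1 alone was far above the rest. IFI6, a mitochondrial protein and the member of the group with the highest level, was at 33.3, 24.3 and 34.0 FPKM against 41.3, 23.2 and 40.5 FPKM, with overlap and a log2 fold change of 0.17 (SE 0.247).

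The membrane and dynamin-like effectors held GBP1, which with SAMD9L was called in every alternative. GBP1 (chr1:89517565-89531043, minus strand) encodes a large GTPase that coats intracellular pathogens and is best known as a target of interferon gamma. It was at 1.53, 1.85 and 2.14 FPKM under the control hairpin, and 7.29, 8.03 and 6.84 FPKM under the Ephexin1 hairpin, means of 1.84 ± 0.305 and 7.39 ± 0.600 (SD, n = 3 libraries each). The 2 groups lay far apart, replicate 2 was not out of line, and the log2 fold change of 1.96 (SE 0.166, limma adjusted p = 0.00167) was called in all 20 alternatives. GBP1 was also drawn in a heatmap that the study made from these libraries, so that its direction is not independent evidence. Its neighbours did not pass the test. GBP3 was at 2.99, 3.90 and 3.18 FPKM across shControl 1 to 3, with 4.65, 5.07 and 4.39 FPKM across shEphexin1 1 to 3, a log2 fold change of 0.48 (limma adjusted p = 0.115), and GBP2 overlapped between the groups at 0.072. GBP1 shared 2.31% of its 50-base words with GBP3 and 0.794% with GBP2. Only exact words were counted, and how many reads could be split between these genes was not tested.

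The IFITM proteins block the fusion of virus with endosomal membranes. IFITM3, the member of this group with the highest level, was at 42, 35.7 and 50.3 FPKM in the control libraries, against 52.6, 42.4 and 46.6 FPKM in the depleted ones, with overlap and a log2 fold change of 0.15 (SE 0.152). IFITM2 was higher without overlap, at 15.2 to 17.6 FPKM in shControl against 18.8 to 25.3 FPKM in shEphexin1 (log2 fold change 0.42, limma adjusted p = 0.126), and IFITM1, below 0.8 FPKM in all libraries, was at −0.12 (SE 0.418). These 3 genes share up to 16% of their 50-base words, so their separate values are uncertain. PLSCR1, a phospholipid scramblase, was at 0.16. Counting all 10 members of the group, 7 were tested, 6 of the 7 were higher (48.9% of all genes), and 1 was called higher (0.893% of all genes). The other 3, BST2, MX1 and MX2, were not tested.

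Of the 12 RNA-directed effectors 9 were tested, 5 were higher (48.9% of all genes) and 4 lower. OAS1, which passed the filter through the shEphexin1 libraries alone, was called higher (0.893% of all genes). The OAS enzymes make 2′-5′-linked oligoadenylates when they bind double-stranded RNA. OAS1 (chr12:113343661-113371024, plus strand) was listed at 0.0472, 0 and 0 FPKM under the control hairpin, and 0.628, 0.326 and 0.525 FPKM under the Ephexin1 hairpin. A value of 0 in this table can be a failed estimate, since the ubiquitous histone gene H3F3A is listed at 0 in all 6 libraries. The size of the change therefore hung on the pseudocount, with a log2 fold change of 2.35 (SE 0.349, limma adjusted p = 0.0128) at 0.1 FPKM, of 0.55 at 1 FPKM and of 4.76 at 0.01 FPKM. The groups did not overlap, but the limma adjusted p rose to 0.0439 without shControl 1, 0.0358 without shControl 2, 0.0482 without shControl 3, 0.0783 without shEphexin1 1 and 0.0604 without shEphexin1 3. OAS3, next to it on chromosome 12, was at 3.99 to 4.57 FPKM under the control hairpin, and 5.04 to 5.95 FPKM under the Ephexin1 hairpin without overlap (log2 fold change 0.36, limma adjusted p = 0.167). OASL, which lacks the synthetase activity, was at 0.251, 0.381 and 0.222 FPKM against 0.443, 0.460 and 0.416 FPKM, with a log2 fold change of 0.51 (SE 0.262, limma adjusted p = 0.297). No 50-base word is shared between the OAS genes.

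The IFIT genes, whose products bind foreign RNA and stop its translation, were not called. IFIT1, with 2 response element cores in its promoter, was at 3.42, 3.72 and 3.02 FPKM in the control libraries, against 2.99, 3.61 and 3.24 FPKM in the depleted ones, a log2 fold change of −0.04 (SE 0.153). IFIT2 was at −0.0058 and IFIT5 at −0.31, while IFIT3 was higher without overlap, at 4.87 to 5.53 FPKM against 5.83 to 7.42 FPKM (log2 fold change 0.37, limma adjusted p = 0.175). All lie on the long arm of chromosome 10, whose median log2 fold change was −0.30. Relative to that median IFIT1, IFIT2 and IFIT3 were at 0.26, 0.30 and 0.67 and IFIT5 at −0.0013. ADAR, an RNA-editing enzyme and the member of the group with the highest level, was at 35.2, 34.8 and 35.6 FPKM under the control hairpin, and 34.0, 31.8 and 34.7 FPKM under the Ephexin1 hairpin, a small shift without overlap (log2 fold change −0.07, SE 0.0944, limma adjusted p = 0.703), which was 0.0050 after quantile normalization. ISG20, a 3′ exonuclease, was at 0.066.

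**Figure D4:**
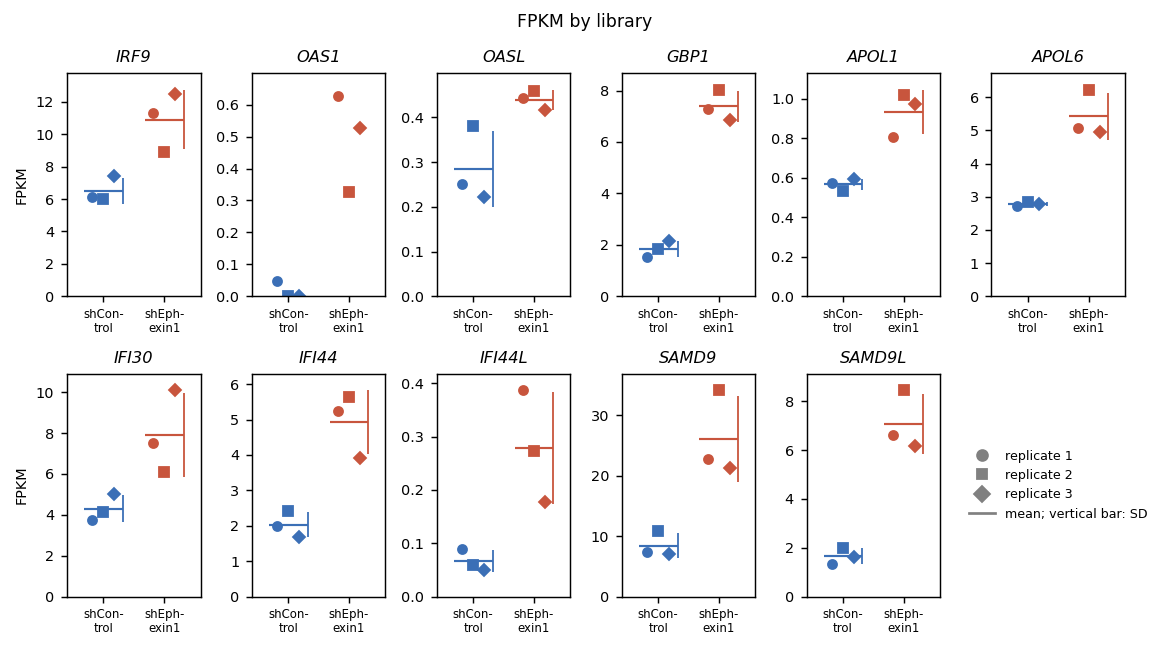
FPKM (y axis, from 0) in each library for 11 interferon stimulated genes whose groups did not overlap and whose means differed at least 1.5-fold, with shControl in blue and shEphexin1 in red. Symbols mark the replicate number, horizontal lines the group mean and vertical bars the SD (n = 3), which are left out for OAS1, listed at 0 in 2 shControl libraries. In each panel all shEphexin1 points lie above all shControl points.

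The 4 apolipoprotein L genes lie together on chromosome 22, and their products are lipid-binding proteins of which APOL1 lyses trypanosomes. APOL6 (chr22:36044493-36064451, plus strand) was at 2.72, 2.84 and 2.79 FPKM across shControl 1 to 3, with 5.09, 6.23 and 4.95 FPKM across shEphexin1 1 to 3. With shControl values of almost no spread, the log2 fold change of 0.93 (SE 0.146) had a limma adjusted p of 0.0152 but fell just short of the fold threshold. APOL1 was at 0.572, 0.534 and 0.593 FPKM in the control libraries, against 0.807, 1.02 and 0.975 FPKM in the depleted ones, again without overlap (log2 fold change 0.63, SE 0.201, limma adjusted p = 0.113). APOL2, the member of the group with the highest level, was at 7.31, 5.65 and 7.43 FPKM against 7.31, 6.39 and 8.13 FPKM and overlapped (log2 fold change 0.10, SE 0.161). APOL3, chosen by the study on these libraries, was below the filter at 0.0650, 0 and 0.0412 FPKM under the control hairpin, and 0.0675, 0.285 and 0.299 FPKM under the Ephexin1 hairpin.

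Of the 8 signal transducers and transcription factors, 0 were called by limma, 6 were higher and 2 lower, and 3 were higher and 0 lower at an unadjusted p of at most 0.05, which 10.5% and 12.8% of all genes reached. IRF9, the DNA-binding partner of STAT2, was at 6.10, 5.99 and 7.42 FPKM across shControl 1 to 3, with 11.3, 8.89 and 12.5 FPKM across shEphexin1 1 to 3. Its groups did not overlap, and the log2 fold change was 0.73 (SE 0.167, limma adjusted p = 0.0442), with 0.81 in replicates 1 and 3 alone. STAT2, its partner, was at 14.3, 13.1 and 13.5 FPKM in the control libraries, against 11.1, 9.96 and 12.5 FPKM in the depleted ones, without overlap (log2 fold change −0.28, SE 0.125, limma adjusted p = 0.227). It lies on the long arm of chromosome 12, and relative to the median of that arm, −0.17, it was at −0.11. IRF1, a transcription factor downstream of interferon gamma, was higher without overlap at 4.82 to 6.45 FPKM against 7.04 to 7.91 FPKM (0.41 on the log2 scale), as was NMI, a STAT-interacting protein, at 14.0 to 15.3 FPKM against 17.3 to 19.5 FPKM (0.31). IRF7, which amplifies type I interferon, was at 0.49 (SE 0.304) with overlap. IFI35, the partner of NMI, was at 10.8, 7.97 and 12.5 FPKM under the control hairpin, and 7.49, 5.81 and 8.82 FPKM under the Ephexin1 hairpin, lower within each replicate number although the groups overlapped (log2 fold change −0.49, limma adjusted p = 0.230, and −0.28 relative to the median of its chromosome arm). With libraries paired by replicate number, the limma adjusted p of IFI35 was 0.00345, still under the fold threshold. In that fit 15.7% of all genes passed the adjusted p threshold and were lower. Of the receptor subunits, IFNAR1 was at 0.22 on the log2 scale, and IFNGR1, the member of the group with the highest level, was at 17.4, 19.8 and 16.4 FPKM against 18.1, 22.6 and 15.2 FPKM (log2 fold change 0.05, SE 0.164), a direction that turned to −0.03 with replicates 1 and 3 alone.

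All 4 nucleic acid sensors were higher by their mean (48.9% of all genes) and 0 were called by limma. Of these, 1 was higher at an unadjusted p of at most 0.05, beside 10.5% of all genes. IFIH1, or MDA5, which detects long double-stranded RNA, was at 3.60, 4.58 and 3.60 FPKM across shControl 1 to 3, with 5.50, 6.14 and 4.76 FPKM across shEphexin1 1 to 3, and the groups did not overlap (log2 fold change 0.47, SE 0.165, limma adjusted p = 0.143). DDX58, or RIG-I, which detects RNA with a 5′ triphosphate, stayed at 2.52 to 2.87 FPKM in all libraries (log2 fold change 0.055). DDX60 and IFI16 were at 0.27 and 0.23, with overlap.

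The 8 members of the ISG15 and ADP-ribose systems were all higher by their mean (48.9% of all genes), with log2 fold changes from 0.064 to 0.49. By limma 0 were called, and 3 were higher at an unadjusted p of at most 0.05, beside 10.5% of all genes. HERC6, a ubiquitin ligase of the HERC family, was at 5.81, 6.81 and 5.71 FPKM in the control libraries, against 8.26, 8.98 and 8.47 FPKM in the depleted ones, with the lowest adjusted p of the group (log2 fold change 0.49, limma adjusted p = 0.0663). Its neighbour HERC5, the main ISG15 ligase, overlapped at 0.081. ISG15 itself was at 13, 10.3 and 14.9 FPKM against 18.4, 10.3 and 15.4 FPKM (0.19, SE 0.236), USP18, which removes it, was at 0.34, and UBE2L6, its conjugating enzyme and the member of the group with the highest level, was at 23.2, 19.9 and 25.5 FPKM against 25.1, 22.3 and 24.0 FPKM (0.064, SE 0.126). DTX3L and PARP14 on chromosome 3 were each at 0.32 without overlap, and PARP9, the partner of DTX3L, was at 0.13 with overlap.

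Among the nuclear body proteins, PML, the organiser of these bodies, was at 14.2, 10.4 and 16.5 FPKM under the control hairpin, and 21.6, 15.4 and 23.8 FPKM under the Ephexin1 hairpin. Each shEphexin1 library was above the shControl library of the same number although the groups overlapped (log2 fold change 0.56, SE 0.222, limma adjusted p = 0.189). With libraries paired by replicate number, the limma adjusted p of PML was 0.00103, still under the fold threshold. In that fit 10.1% of all genes passed the adjusted p threshold and were higher. SP100, the member of the group with the highest level, was at 19.3, 20.0 and 18.6 FPKM against 20.4, 20.2 and 20.1 FPKM, a small separation of 0.067 on the log2 scale (SE 0.0978), and SP110 was at 0.041.

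The 9 members below the filter hold several genes that respond strongly to interferon in other settings. EPSTI1 was listed at 0 in all 6 libraries. In shEphexin1 replicate 1 the other 8 all had a value above 0, with BST2, or tetherin, at 0.409 FPKM, OAS2 at 0.238, CMPK2 at 0.172, MX1 at 0.121, MX2 at 0.0855, APOL3 at 0.0675, XAF1 at 0.0403 and RSAD2, or viperin, at 0.0235. In the shControl libraries 1, 1 and 2 of these 8 were above 0, and in shEphexin1 replicates 2 and 3, 4 and 2 were. MX1, a dynamin-like GTPase that the study chose on these libraries, was listed at 0, 0 and 0.0276 FPKM across shControl 1 to 3, with 0.121, 0.0429 and 0 FPKM across shEphexin1 1 to 3, and so overlapped. No change was read from values this low.

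The rest of the interferon pathway was followed in a separate list of 52 genes, of which 29 were tested and 0 were called in either direction, beside 1.89% of all genes. At an unadjusted p of at most 0.05, 4 were higher (beside 10.5% of all genes) and 3 lower (beside 12.8%), the groups of 7 did not overlap upward (12.8% of all genes) and those of 3 downward (15.4%), and the median log2 fold change was 0.05. At the looser adjusted p of 0.05 with the same fold threshold, 1 gene of the list, SOCS1, was called higher, beside 1.49% of all genes, and 1 lower, beside 1.4%. Of the 21 interferon ligands 16 were listed at 0 in all 6 libraries and 1 was tested. That was IFNE, an epithelial type I interferon, at 0.813, 0.894 and 0.879 FPKM in the control libraries, against 1.02, 1.48 and 1.23 FPKM in the depleted ones (log2 fold change 0.47, limma adjusted p = 0.224). IFNB1 was listed at 0, 0.111 and 0.125 FPKM in shControl and at 0 in all shEphexin1 libraries. On the log2 scale the difference was 0.10 for JAK1 and 0.36 for the receptor subunit gene IFNAR2.

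SOCS1, a feedback inhibitor that binds and blocks the JAK kinases, was at 0.425, 0.959 and 0.361 FPKM across shControl 1 to 3, with 2.54, 1.33 and 2.47 FPKM across shEphexin1 1 to 3. Replicate 2 showed the smallest difference, and the log2 fold change of 1.75 (SE 0.386, limma adjusted p = 0.0404) became 2.41 (limma adjusted p = 0.00328) with replicates 1 and 3 alone. Treated as pairs by replicate number, the limma adjusted p was 0.0214, which passes the threshold. DHX58, or LGP2, a regulator of RIG-I and MDA5, was at 0, 0 and 0.173 FPKM against 0.307, 0.251 and 0.299 FPKM (log2 fold change 1.46, limma adjusted p = 0.106), a size that hung on the pseudocount, with 0.29 at 1 FPKM and 3.48 at 0.01 FPKM. PTPN2, a phosphatase acting on JAK1, was lower without overlap (log2 fold change −0.57, limma adjusted p = 0.0403), and at −0.11 relative to the median of its chromosome arm.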

How the data were processed

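The authors sequenced total RNA libraries from 3 shControl and 3 shEphexin1 H1299 samples. The submitters' processing notes name bcl2fastq 2.20, Bowtie, TopHat2 2.0.13 and Cufflinks 2.2.1 with GRCh37, and the deposited values are FPKM per gene and library. FPKM scales each gene to its length and library, and no counts were used. Depth is therefore unknown. Steps in the low values gave only relative depth, with shEphexin1 1 at 0.949, 1.17 and 1.22 times the depth of shControl 1, shControl 3 and shEphexin1 3, and the replicate 2 libraries showed no clear steps. The precision of low values is limited accordingly.

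The 16020 genes that reached 0.1 FPKM in 3 or more of the 6 libraries were fitted on log2(FPKM + 0.1) with limma 3.58.1 (trended eBayes, R 4.3.3), so fold changes are on that scale and understate those of low genes. P-values were two-sided and adjusted by Benjamini-Hochberg over all genes tested, and a gene was called when the adjusted p did not exceed 0.025 and the fold change was 2 or more, the thresholds of the study's own scatter plot. On simulated data of the same size, 61 of 100 genes changed by 1.5 on the log2 scale and 92 of 100 changed by 3 were called, with 3 unchanged genes called. The noise was drawn independently for each gene and library, without the replicate and GC differences of the real libraries. These counts therefore do not show how the test performs with such differences. For single genes an exact permutation test of 3 against 3 libraries cannot go below p = 0.1, so only overlap is given.

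The members and lists were chosen with earlier results of these data known. Named by library are the genes called, those without overlap and at least 1.5-fold apart, the member with the highest mean level in each role, and GBP1, IFI44L, APOL3 and MX1, which the study drew or measured again after sequencing these libraries. A few others were named after their values were seen, namely STAT2, IFI35, IFI27, PML, HERC6, GBP3, IFITM2, OAS3, the IFIT genes, ISG15, IRF1, NMI, IFNE, IFNB1, PTPN2 and the genes around SAMD9. The labels do not say that replicate numbers pair libraries, but deviations from the group means of libraries with the same number correlated (r = 0.234, 0.639 and 0.513 for replicates 1, 2 and 3 across 12638 genes). Libraries with different numbers were at r = −0.569 to 0.149, highest for shControl 3 with shEphexin1 1. Paired values are therefore given where they change a call, and for NGEF, PML, LGALS3BP and IFI35. Whether the GC differences between libraries gave these correlations was not tested. Gene positions are from GENCODE on GRCh37. Promoter motifs were searched on both strands, and 14 members had no promoter in the table. Some genes of the pathway and marker lists are counted but not reported here by name.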

Additional observations from a re-analysis of the deposited data

How the results depend on the processing

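0 members were called lower by limma in the alternatives run (0 also at an unadjusted p of at most 0.05 with the settings of the report), and the count called higher was 5 in the report. It was 3 with a pseudocount of 1 FPKM and between 2 and 4 when 1 library was left out: 2 without shControl 1, shControl 3, shEphexin1 1 or shEphexin1 3, 3 without shControl 2 and 4 without shEphexin1 2. The other settings gave 4 to 6. The median log2 fold change of the members ran from 0.23 with a pseudocount of 1 FPKM to 0.34 without shEphexin1 3. In the pathway list, 1 gene (SOCS1) was called higher with the replicate block, with a batch term for replicate 2, with replicates 1 and 3 alone and at an adjusted p of 0.05. There, 1 gene was called lower with eBayes without trend, with the replicate block, with the batch term, with GC and length loess correction with and without the block, and at an adjusted p of 0.05. Among the members and the pathway list, the replicate block changed no other call past both thresholds. Directions turned in genes close to 0. With 1 library left out, UBE2L6 ran from −0.033 (without shControl 2) to 0.15, APOL2 from −0.025 (without shControl 2) to 0.19 and IFNGR1 from −0.10 (without shEphexin1 2) to 0.18 (without shEphexin1 3), with −0.013 without shControl 3. ADAR was at 0.0050 after quantile normalization and IFNGR1 at −0.026 with replicates 1 and 3 alone. The cause was not tested. Depth is unknown here, and the 9 members under the filter were not tested.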

Other observations

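The library with the highest value was looked at after the values were seen, and no test was run. Of the 8 members that were below the filter and above 0 in at least 1 library, 7 had their highest value in shEphexin1 replicate 1, beside 20.6% of the 3270 genes of that kind in the whole table, and the last, APOL3, had it in shEphexin1 replicate 3. Of all genes of that kind, 47.8% were above 0 in shEphexin1 replicate 1, beside 37.6% to 50.8% in the other 5 libraries. Among tested members the highest library was more often shEphexin1 replicate 2, for 22 of 50, with 12 for shEphexin1 replicate 1, 9 for shEphexin1 replicate 3 and 7 for the 3 shControl libraries together. The same was not counted over all genes tested, so these counts are not read as a trait of the members.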
